A study of Mus musculus with 4 samples.

Results

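A set of 7 genes of oxysterol sensing and metabolism was followed across 4 subsets of dendritic cells (DCs) from mouse spleen. They were Gpr183, Ch25h, Cyp7b1, Hsd3b7, Cyp27a1, Nr1h3 and Nr1h2, out of 18193 named genes on the array, and each was represented by every probe set that the platform annotation gives to its symbol. The annotation used here gave 10 probe sets to 6 of the 7 genes. It gave none to Nr1h2, whose signal was not analysed here. The set was chosen by its MAS5 signals on these same arrays, where Gpr183 and Cyp7b1 differed most, so the levels and differences below are descriptions and carry no test.

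The subsets are titled CD8+CX3CR1+, CD8+CX3CR1-, CD4+ and DN, with 1 Affymetrix mouse array for each (the labels do not spell out DN). All came from Cx3cr1gfp/+ mice on a C57BL/6 background, in which a gene for green fluorescent protein stands in place of 1 copy of Cx3cr1, so every subset carried a reduced dose of that chemokine receptor gene. None had been treated with BMP4, and all were isolated from collagenase D digests by magnetic enrichment for CD11c followed by sorting of CD11chi cells. Neither the age and number of the mice, nor any pooling, nor the sort gates could be taken from the labels. Groups were taken from the sample titles, since another label, the DC type, contradicts the titles of CD8+CX3CR1- and DN, giving CD8+CX3CR1+ and CD4+ instead.

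Oxysterols are oxidised forms of cholesterol that act as signals. Gpr183, also known as EBI2, is a G protein-coupled receptor through which B cells, T cells and DCs migrate towards a dihydroxylated oxysterol, and in mouse spleen it is known for the positioning of CD4+ DCs in the bridging channels. Ch25h and Cyp7b1 add the hydroxyl groups that make this ligand and Hsd3b7 inactivates it, while Nr1h3 and Nr1h2 encode the nuclear receptors LXR alpha and LXR beta, which bind other oxysterols and switch on genes of cholesterol export.

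All levels are linear MAS5 signals. As each subset had 1 array, there was no replicate check, nothing was tested and every difference describes 2 arrays; their number limits the precision. A floor of 55.4, the 90th percentile of 129 probe sets of smell, taste and pheromone receptor genes and of hair keratin-associated genes, marked background, and the 12653 genes that passed it on at least 1 array are called detected. A difference was called at 4-fold or more. It is given as a bound ("at least") where 1 of the 2 arrays lay under the floor, and no fold is given where both did. The only error that can be measured is the disagreement between probe sets of a gene, whose root mean square standard deviation was between 0.42 and 0.55 on the log2 scale in the 6 pairs of arrays. It leaves out the spread between mice and between sorts.

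The transcripts behind the sort went with the titles at the probe sets used. Cd8a had a signal of 2530.2 in CD8+CX3CR1+ DCs and 4742 in CD8+CX3CR1- DCs, against 18.7 in CD4+ DCs and 130 in DN DCs. Cx3cr1 was 894, 97.3, 275 and 258 in CD8+CX3CR1+, CD8+CX3CR1-, CD4+ and DN DCs, and Cd4 was 93.3, 21.1, 564 and 93.9 in the same order. Both Cd8a and Cd4 thus passed the floor in DN DCs, and Cd4 in CD8+CX3CR1+ DCs as well. Further Cd8a probe sets read 48.7, 2.4, 26.5 and 70.9 in DN DCs. The other Cx3cr1 probe set lay under the floor on all 4 arrays, and the other Cd4 probe set passed it in CD4+ DCs alone. Itgax, which encodes CD11c, lay between 3271 and 6415 on all 4. The CD4+ array had the largest share of probe sets above the floor, 47.8% against 41.1% to 42.7% on the others. It also had the highest 3'/5' ratio of the Gapdh control probe sets, 11.8 against 7.56 to 8.98, and of the actin ones, 2.86 against 1.79 to 2.32. On all 4 arrays the 3' signal of both controls exceeded the 5' signal. Degraded RNA raises such ratios, and its part in the results was not tested.

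Promoter sequences of a pair of the genes are shown because their signals stood at opposite ends in CD8+CX3CR1- DCs, where Gpr183 was at its lowest and Hsd3b7 at its highest. The 250 bases before each start site are from RefSeq (GRCm38.p6), at chr14:121965194-121965443 on the minus strand for Gpr183 and at chr7:127800359-127800608 on the plus strand for Hsd3b7, written 5′ to 3′ in the direction of transcription. Capitals mark matches to the E-box CANNTG, a motif of basic helix-loop-helix factors.
Gpr183: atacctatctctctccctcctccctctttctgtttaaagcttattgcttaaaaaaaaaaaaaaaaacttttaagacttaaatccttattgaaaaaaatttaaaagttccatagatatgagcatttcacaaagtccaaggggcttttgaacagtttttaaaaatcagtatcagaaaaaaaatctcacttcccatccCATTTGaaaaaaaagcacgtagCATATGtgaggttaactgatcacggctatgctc
Hsd3b7: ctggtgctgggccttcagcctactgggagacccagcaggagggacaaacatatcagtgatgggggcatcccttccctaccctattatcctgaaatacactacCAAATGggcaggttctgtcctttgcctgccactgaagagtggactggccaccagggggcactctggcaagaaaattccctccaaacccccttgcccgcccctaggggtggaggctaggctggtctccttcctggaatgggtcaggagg
The Gpr183 window held 2 E-box matches, starting 55 and 33 bases before the start site, and the Hsd3b7 window held 1, starting 148 bases before it. Of 32851 promoter windows of this length 66.2% held at least 1 such match on either strand. The nuclear receptor hexamer AGGTCA (in 14% of windows) and the PU.1 motif GAGGAAGT (2.44%) had no match on either strand in these 2 windows, nor in those of Ch25h, Cyp27a1, Nr1h3 and Nr1h2. A promoter entry was at hand for 6 of the 7 genes, Cyp7b1 being the exception. A match is a string of letters and no evidence of binding.

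The receptor gene Gpr183 was high on 3 arrays and low in CD8+CX3CR1- DCs. Its brighter probe set read 2689.5 in CD8+CX3CR1+ DCs, 118 in CD8+CX3CR1- DCs, 1234 in CD4+ DCs and 1190.2 in DN DCs. The other probe set read 878 in CD8+CX3CR1+ DCs, 10 in CD8+CX3CR1- DCs, 181 in CD4+ DCs and 421 in DN DCs. Both placed CD8+CX3CR1+ DCs highest and CD8+CX3CR1- DCs lowest, and they disagreed on the order of CD4+ and DN DCs.

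**Figure D1:**
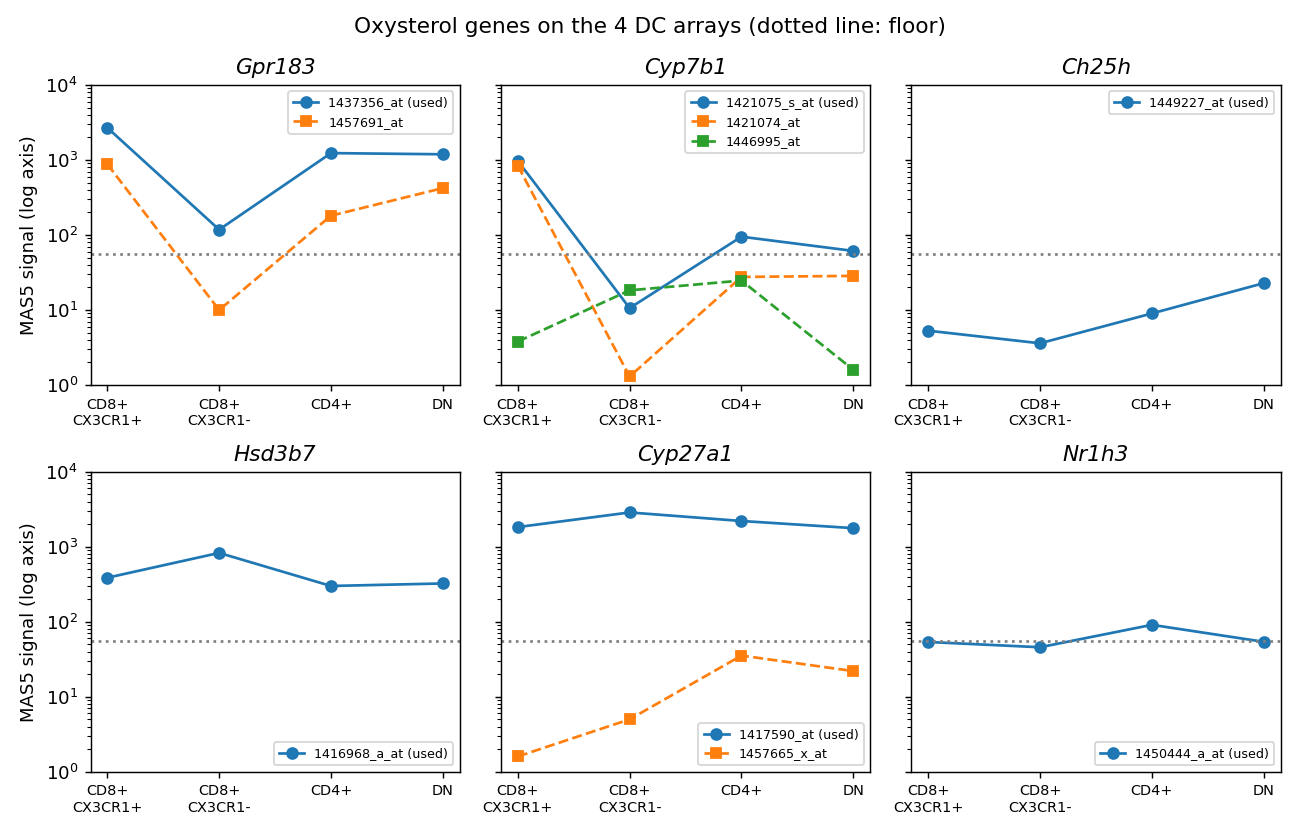
MAS5 signal (log axis) of every probe set of 6 oxysterol genes on the 4 DC arrays, with 1 point per array; the solid blue line is the probe set used for the gene, dashed lines are its other probe sets, lines join points of 1 probe set only to guide the eye, and the dotted line is the floor of 55.4. Gpr183 dips in CD8+CX3CR1- DCs, Cyp7b1 peaks in CD8+CX3CR1+ DCs, and Ch25h lies under the floor on all 4; heights of different probe sets cannot be compared.

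Gpr183 was 22.8-fold higher in CD8+CX3CR1+ DCs than in CD8+CX3CR1- DCs (log2 difference 4.51), and at least 15.9-fold higher by the other probe set. Only 10 detected genes had a larger difference in this direction. It was 10.5-fold lower in CD8+CX3CR1- DCs than in CD4+ DCs (log2 difference -3.39; at least 3.26-fold by the other probe set) and 10.1-fold lower than in DN DCs (-3.34; at least 7.60-fold). Of all 12653 detected genes 103 (0.814%) lay at least 4-fold below the other 3 arrays in CD8+CX3CR1- DCs, and Gpr183 ranked 25th among them by the size of this gap.

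Among the 3 arrays with high Gpr183, CD8+CX3CR1+ DCs stood 2.18-fold above CD4+ DCs and 2.26-fold above DN DCs, short of the 4-fold threshold. The other probe set gave 4.86-fold and 2.08-fold for the same comparisons, so that the difference from CD4+ DCs passed the threshold by that probe set alone. CD4+ and DN DCs were 1.04-fold apart by the brighter probe set, well inside the disagreement between probe sets, with CD4+ the higher, and 2.33-fold apart with CD4+ the lower by the other. With the array medians made equal, the CD4+ signal was lower by 0.28 relative to DN on the log2 scale, which turns the sign of the small difference of the brighter probe set as well.

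B cells also express Gpr183, so their markers are given beside it. Of 8 B cell genes with a probe set, 4 lay above the floor in CD8+CX3CR1+ DCs, 4 in CD8+CX3CR1- DCs, 5 in CD4+ DCs and 5 in DN DCs, and their summed signal was 1530, 914, 3446 and 3315 in the same order. The defining gene Cd79a lay under the floor on all 4 arrays. Cd79b, which encodes its partner in the B cell receptor, read 593 in CD8+CX3CR1+ DCs, 3.1 in CD8+CX3CR1- DCs, 402 in CD4+ DCs and 178 in DN DCs, highest and lowest on the same arrays as Gpr183, and it was called higher between CD8+CX3CR1+ and CD8+CX3CR1- DCs and lower between CD8+CX3CR1- and CD4+ DCs. Ms4a1, which encodes CD20, read 361 in CD8+CX3CR1+ DCs, 446 in CD8+CX3CR1- DCs, 202 in CD4+ DCs and 163 in DN DCs. Cd22, at 396, 269, 2513 and 2713 in the same order of arrays, made up most of the sum in CD4+ and DN DCs. Without Cd22, a choice made after seeing the data, the sum was 1134, 645, 933 and 602, highest in CD8+CX3CR1+ DCs as Gpr183 was. Of 7 T and NK cell genes with a probe set, 5, 0, 2 and 3 lay above the floor in CD8+CX3CR1+, CD8+CX3CR1-, CD4+ and DN DCs, and they summed to 389, 176, 338 and 372. All 5 detected ones were higher in CD8+CX3CR1+ than in CD8+CX3CR1- DCs, as were 43.3% of all detected genes. Cd5 read 117 against 45.4 and Eomes 76.7 against 22.9. The others lay close to the floor in CD8+CX3CR1+ DCs, Cd3e at 65.8 against 23.2, Cd3d at 59.1 against 17.4 and Prf1 at 58.2 against 55.3. Cd3g and Ncr1 were under the floor on all 4 arrays. The part of other cells in the Gpr183 signal was not tested. In sorted cells measured in bulk, fewer cells that express a gene and less of its RNA per cell cannot be told apart.

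Of the enzymes that make the Gpr183 ligand, Cyp7b1 was high in CD8+CX3CR1+ DCs and low or at background on the others. Cyp7b1 encodes an oxysterol hydroxylase that acts after Ch25h in the synthesis of the ligand and also clears other oxysterols. Its brightest probe set read 974 in CD8+CX3CR1+ DCs, 10.6 in CD8+CX3CR1- DCs, 94.9 in CD4+ DCs and 61.3 in DN DCs. A further probe set read 838 in CD8+CX3CR1+ DCs, against 1.3, 27.6 and 28.5 in CD8+CX3CR1-, CD4+ and DN DCs, all under the floor. The third lay under the floor on every array, at 3.8, 18.3, 24.7 and 1.6 in the same order, and gave no signal above background where the others were bright.

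By the brightest probe set, Cyp7b1 was at least 17.6-fold higher in CD8+CX3CR1+ DCs than in CD8+CX3CR1- DCs (log2 difference of floored signal 4.14). It was 10.3-fold higher than in CD4+ DCs (3.36) and 15.9-fold higher than in DN DCs (3.99). The further probe set gave at least 15.1-fold in each of the 3 comparisons. Averaged over all 3 probe sets, the signals of the other arrays lay under the floor. The log2 difference was then at least 1.40 in each comparison, a bound that does not show whether 4-fold was reached. In CD8+CX3CR1+ DCs 19 of the 12653 detected genes (0.150%) lay at least 4-fold above all other arrays, and Cyp7b1, at 10.3-fold, came behind Sox4 alone (13.4-fold).

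Between the remaining arrays the size of the Cyp7b1 difference was measured in 1 pair only. CD4+ DCs were 1.55-fold above DN DCs, with both values close to the floor. CD8+CX3CR1- DCs, under the floor, were at least 1.71-fold below CD4+ DCs and at least 1.11-fold below DN DCs, bounds that leave the size unknown. Whether CD4+ and DN DCs held any Cyp7b1 transcript rested on 1 probe set. Its signals of 94.9 and 61.3 compare with background percentiles of 58.7 and 52.7 on those arrays.

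Ch25h, the cholesterol hydroxylase that makes the substrate of Cyp7b1 in this route, was not detected. Its 1 probe set read 5.3 in CD8+CX3CR1+ DCs, 3.6 in CD8+CX3CR1- DCs, 9.0 in CD4+ DCs and 22.8 in DN DCs, all below the floor, so no fold is given. High Cyp7b1 in CD8+CX3CR1+ DCs therefore stood beside undetected Ch25h. Stromal cells of lymphoid organs are a known source of both enzymes. Of 10 stromal and endothelial genes with a probe set, 0 lay above the floor in CD8+CX3CR1+ DCs, against 2 in CD8+CX3CR1- DCs, 4 in CD4+ DCs and 3 in DN DCs. Their summed signal was 249.9 in CD8+CX3CR1+ DCs, all of it from values under the floor, against 656 in CD8+CX3CR1- DCs, 639.7 in CD4+ DCs and 453 in DN DCs. The endothelial gene Vwf made up much of the others, at 18.3, 433, 217 and 117 in CD8+CX3CR1+, CD8+CX3CR1-, CD4+ and DN DCs, and without it the sums were 232, 223, 423 and 336. Pdgfrb, Cxcl13, Col3a1 and Madcam1 lay under the floor everywhere. Pdpn, at 50.1 in CD8+CX3CR1+ DCs, passed that array's own background percentile of 45.9. Kdr, which is outside this list and encodes a receptor for vascular endothelial growth factor, read 717 in CD8+CX3CR1+ DCs. It read 6.3, 45.3 and 93.8 in CD8+CX3CR1-, CD4+ and DN DCs. The part of stromal or endothelial RNA in the Cyp7b1 signal was not tested.

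Hsd3b7, the dehydrogenase that inactivates the ligand, had its highest signal where Gpr183 had its lowest. Its 1 probe set read 386 in CD8+CX3CR1+ DCs, 827 in CD8+CX3CR1- DCs, 299.7 in CD4+ DCs and 324 in DN DCs. CD8+CX3CR1- DCs thus stood above all others, and the other 3 subsets lay close together.

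Hsd3b7 was 2.14-fold lower in CD8+CX3CR1+ DCs than in CD8+CX3CR1- DCs (log2 difference -1.10). In CD8+CX3CR1- DCs it was 2.76-fold higher than in CD4+ DCs (1.46) and 2.55-fold higher than in DN DCs (1.35). None of these reached 4-fold, though each exceeded the disagreement between probe sets of a gene, which is 1.38-fold to 1.47-fold for these pairs. A difference of this size or more in the same direction was found for 4.73%, 2.89% and 2.39% of detected genes. CD8+CX3CR1+ DCs were 1.29-fold above CD4+ DCs and 1.19-fold above DN DCs, and CD4+ DCs were 1.08-fold below DN DCs. As deposited, these 3 subsets did not differ by more than the probe set disagreement. With equal array medians the log2 difference of CD8+CX3CR1+ from CD4+ DCs became 0.70, above the disagreement of 0.50 for that pair.

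Cyp27a1, a mitochondrial sterol hydroxylase that makes an LXR ligand, was well above the floor in all 4 subsets at its main probe set. It read 1827 in CD8+CX3CR1+ DCs, 2862 in CD8+CX3CR1- DCs, 2202 in CD4+ DCs and 1768 in DN DCs. The values spanned 1.62-fold, a range that 49.7% of detected genes reached or passed. Cyp27a1 was 1.57-fold lower in CD8+CX3CR1+ DCs than in CD8+CX3CR1- DCs, which themselves were 1.30-fold above CD4+ DCs and 1.62-fold above DN DCs, directions that the average of its probe sets turned round for CD4+ and DN DCs. Its other probe set, of the _x class that may bind other transcripts, lay under the floor on all arrays at 1.6, 5.0, 35.4 and 22.0, listed as CD8+CX3CR1+, CD8+CX3CR1-, CD4+ and DN.

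The nuclear receptor gene Nr1h3 lay near background. Its 1 probe set read 53.7 in CD8+CX3CR1+ DCs, 45.7 in CD8+CX3CR1- DCs, 90.9 in CD4+ DCs and 54.0 in DN DCs. CD4+ DCs alone were above the floor, by 1.64-fold, on the array that also had the most probe sets above the floor. Against each array's own background percentile, CD8+CX3CR1+ DCs (45.9) and DN DCs (52.7) lay above it too, and CD8+CX3CR1- DCs (62.4) below. Nr1h3 is strongly expressed in splenic macrophages, and of 13 red pulp and marginal zone macrophage genes 8, 6, 9 and 8 lay above the floor in CD8+CX3CR1+, CD8+CX3CR1-, CD4+ and DN DCs. Their summed signal was 2533, 1098, 4342 and 2372 in the same order, highest in CD4+ DCs, where Adgre1, which encodes F4/80, made up 3068 of it. Without Adgre1 it was 1955, 955, 1274 and 679.8, highest in CD8+CX3CR1+ DCs. The marginal zone receptor gene Marco was under the floor on all 4 arrays. Monocyte and neutrophil genes, of which 9 had a probe set, summed to 3030 in CD8+CX3CR1+ DCs, 3195 in CD8+CX3CR1- DCs, 7857 in CD4+ DCs and 3935 in DN DCs, most of it Lyz2; without Lyz2 the sum was 1294, 1543, 573 and 1100.1 in the same order and lowest in CD4+ DCs. Vcan, S100a9 and Camp were under the floor throughout. The part of these cells in the Nr1h3 signal was not tested.

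Counted over the set, 5 of the 6 genes with a probe set were detected and 2 passed 4-fold in at least 1 pair of arrays, Gpr183 and Cyp7b1. Both were called higher between CD8+CX3CR1+ and CD8+CX3CR1- DCs, where 2.82% of detected genes were called in either direction and 1.67% higher. Gpr183 alone was called, as lower, between CD8+CX3CR1- and CD4+ DCs (2.98% of detected genes in either direction, 1.80% lower) and between CD8+CX3CR1- and DN DCs (2.02%, and 1.28% lower). Cyp7b1 alone was called, as higher, between CD8+CX3CR1+ and CD4+ DCs (0.775%, and 0.395% higher) and between CD8+CX3CR1+ and DN DCs (0.411%, and 0.277% higher). None was called between CD4+ and DN DCs (0.253%). These comparisons share arrays, and the counts were fixed in part by how the genes were chosen, so nothing is read from them.

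With arrays scaled to an equal median, the direction of calls over all genes moved in the pairs with the CD4+ array. They became 236 higher and 158 lower for CD8+CX3CR1- against CD4+, in place of 149 and 228. For CD8+CX3CR1+ against CD4+ they became 90 and 21 in place of 50 and 48, and for CD4+ against DN 5 and 35 in place of 9 and 23. Small differences from the CD4+ array thus depend on the scaling. Such scaling moved Cyp27a1 in CD8+CX3CR1+ DCs against CD4+ DCs to 0.06, in place of -0.27 (log2).

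**Figure D2:**
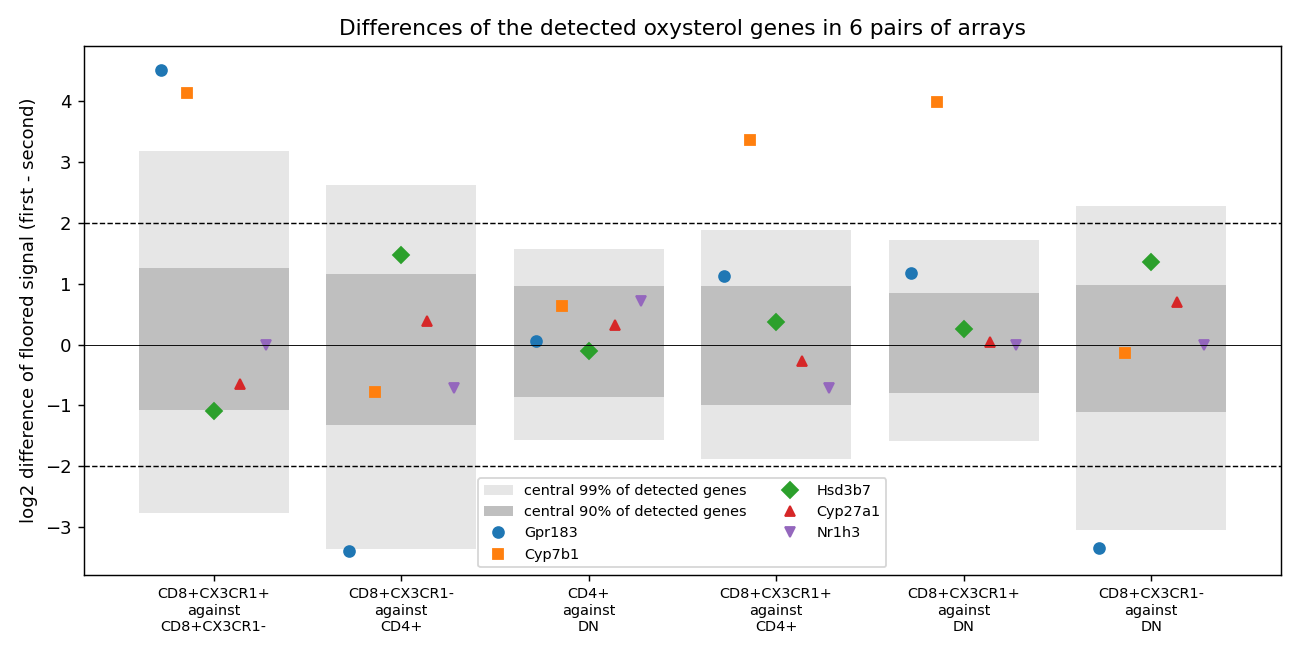
log2 difference of floored signal (first array minus second) for the 5 detected oxysterol genes in the 6 pairs of arrays; points are genes, grey bands hold the central 90% and 99% of detected genes, and dashed lines mark 4-fold. Gpr183 and Cyp7b1 lie beyond a dashed line in 3 pairs each, Hsd3b7, Cyp27a1 and Nr1h3 in none; values for Cyp7b1 in pairs with CD8+CX3CR1- DCs and for Nr1h3 other than 0 are bounds.

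The genes whose profiles over the 4 arrays lay closest to that of Gpr183 were found from the root mean square difference of log2 floored signal after each gene's mean was taken away. The closest of 11914 named genes was the Ets-family factor gene Spib (0.14), which read 1557 in CD8+CX3CR1+ DCs, 60.3 in CD8+CX3CR1- DCs, 577 in CD4+ DCs and 705 in DN DCs. Next came the lymphotoxin gene Ltb (0.25), the transcription factor gene Stat4 (0.25), Rgl1 (0.26) and Klrd1 (0.27), which encodes CD94. Across the 4 arrays 24 genes lay within 0.5 of Gpr183. The Spib value in CD8+CX3CR1- DCs lay below that array's own background percentile of 62.4. Stat4 (55.1) and Rgl1 (27.3) were under the floor on that array, so their distances depend in part on the floor.

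The profile of Cyp7b1 had fewer neighbours, with 2 genes within 0.5. These were Lefty1 (0.38), which encodes an inhibitor of Nodal signalling, and the transcription factor gene Sox4 (0.47). Lefty1 read 503 in CD8+CX3CR1+ DCs, 42.1 in CD8+CX3CR1- DCs, 61.6 in CD4+ DCs and 41.8 in DN DCs. Sox4 read 1863 in CD8+CX3CR1+ DCs, 22.5 in CD8+CX3CR1- DCs, 121 in CD4+ DCs and 139 in DN DCs. Kdr (0.52), which encodes a receptor for vascular endothelial growth factor, Xkrx (0.60) and Snx18 (0.61) followed. In CD8+CX3CR1- DCs Cyp7b1, Lefty1, Sox4, Kdr (6.3) and Xkrx (2.4) all lay under the floor and were made equal by it. Lefty1 was under the floor in DN DCs as well. The distances therefore depend in part on the floor. Likeness over 4 arrays is a description of few points.

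**Figure D3:**
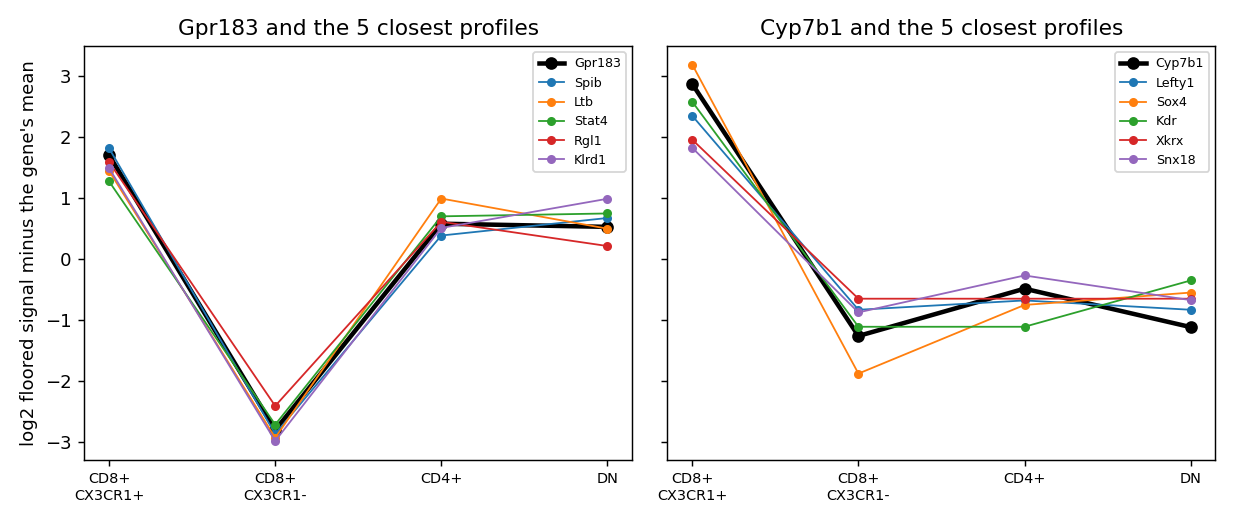
log2 floored signal minus each gene's mean over the 4 arrays, for Gpr183 (left) and Cyp7b1 (right) in black and the 5 genes with the closest profiles in colour, 1 point per array. The Gpr183 group is lowest in CD8+CX3CR1- DCs, while the Cyp7b1 group is highest in CD8+CX3CR1+ DCs.

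The wider sterol pathway was read from 6 lists, of which few genes passed 4-fold. Among all detected genes 0.253% to 2.98% were called in a pair. Of 20 LXR target genes, 18 had a probe set and 14 were detected. Between CD8+CX3CR1+ and CD8+CX3CR1- DCs 1 was called higher and 0 lower, beside 1.67% of all detected genes called higher and 2.82% either way. The median log2 difference was 0.22 against 0 over all detected genes, and 11 of the 14 lay above 0 against 43.3% of all detected genes.

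The target called there was the lipoprotein lipase gene Lpl, at 297 in CD8+CX3CR1+ DCs, 5.3 in CD8+CX3CR1- DCs, 209 in CD4+ DCs and 118 in DN DCs. It was at least 5.35-fold higher in CD8+CX3CR1+ DCs than in CD8+CX3CR1- DCs; its other probe set lay under the floor on all arrays. Apoe, which encodes a lipoprotein that carries exported cholesterol, read 1726 in CD8+CX3CR1+ DCs, 523 in CD8+CX3CR1- DCs, 1397 in CD4+ DCs and 221 in DN DCs. It was 7.83-fold higher in CD8+CX3CR1+ DCs and 6.33-fold higher in CD4+ DCs than in DN DCs, in each case the only LXR target called of 14 detected. Among all detected genes 0.411% and 0.253% were called either way in these pairs. The Apoe difference between CD4+ and DN DCs was the largest in its direction among detected genes. In the macrophage list the complement genes C1qa, C1qb and C1qc were likewise higher in CD8+CX3CR1+ and CD4+ DCs than in DN DCs, C1qb reading 742, 60.0, 358 and 70.2 in CD8+CX3CR1+, CD8+CX3CR1-, CD4+ and DN DCs, although C1qb was lowest in CD8+CX3CR1- DCs and Apoe in DN DCs. Other genes of that list had other orders, Adgre1 reading 579, 143, 3068 and 1692 and Vcam1 291, 513, 142 and 109 on the same arrays. The part of macrophage RNA in the Apoe signal was not tested.

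Pltp, a phospholipid transfer protein gene, read 63.1 in CD8+CX3CR1+ DCs, 21.4 in CD8+CX3CR1- DCs, 232 in CD4+ DCs and 127 in DN DCs. It was at least 4.19-fold lower in CD8+CX3CR1- DCs than in CD4+ DCs, a pair where 1.80% of all detected genes were called lower. This bound fell under 4-fold with equal medians, with a higher floor, with a floor for each array or with probe sets averaged. The other Pltp probe set read 79.0, 5.4, 147.6 and 127.8 in CD8+CX3CR1+, CD8+CX3CR1-, CD4+ and DN DCs. It gave at least 2.66-fold for the same comparison. The exporter gene Abcg1, a classical LXR target, read 1004 in CD8+CX3CR1+ DCs, 867 in CD8+CX3CR1- DCs, 889.6 in CD4+ DCs and 707 in DN DCs, and was chosen for mention after its values were seen. Its range over the 4 arrays was 0.50 on the log2 scale.

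Genes of sterol synthesis and other SREBP2 targets, which a cell raises when its sterol content falls, had 22 of 26 members with a probe set and all 22 detected. None passed 4-fold in any pair. Their median log2 difference was -0.38 between CD8+CX3CR1+ and CD8+CX3CR1- DCs, with 17 of 22 below 0 against 41.6% of all detected genes. It was -0.36 between CD8+CX3CR1+ and DN DCs, with 15 of 22 below 0 against 41.5%. Between CD4+ and DN DCs it was -0.21, with 15 below 0 against 41.7%. Between CD8+CX3CR1- and DN DCs it was 0.24, with 15 above 0 against 43.2%. Genes with both signals under the floor lie at 0, which lowers the shares over all genes. The list median was 0.31 between CD8+CX3CR1- and CD4+ DCs (0 with probe sets averaged, 0.66 with equal array medians) and 0.06 between CD8+CX3CR1+ and CD4+ DCs (-0.10 with probe sets averaged, 0.32 with equal medians). The median between CD8+CX3CR1+ and CD8+CX3CR1- DCs lay between -0.45 and -0.22 under the other settings, so its direction did not depend on the scaling.

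Among 12 oxysterol-binding protein genes, which encode lipid transfer proteins, 11 were detected and 1 was called, in a pair where 2.82% of all detected genes were called. Osbpl3 read 106 in CD8+CX3CR1+ DCs, 571 in CD8+CX3CR1- DCs, 159.9 in CD4+ DCs and 245 in DN DCs, 5.38-fold lower in CD8+CX3CR1+ DCs than in CD8+CX3CR1- DCs. A further probe set read 17.1 in CD8+CX3CR1+ DCs, under the floor, and 84.9 in CD8+CX3CR1- DCs, at least 1.53-fold lower in CD8+CX3CR1+ DCs, and the third lay under the floor on all arrays.

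Of 16 genes of cholesterol storage and trafficking 12 were detected. Between CD8+CX3CR1+ and CD8+CX3CR1- DCs 2 were called higher (16.7%), beside 1.67% of all detected genes. Between CD8+CX3CR1- and CD4+ DCs 1 was called lower (8.33%), beside 1.80%. With so few genes in the list, nothing is read from these shares. The lipoprotein receptor gene Lrp1 read 321 in CD8+CX3CR1+ DCs, 37.2 in CD8+CX3CR1- DCs, 277 in CD4+ DCs and 171 in DN DCs. It was at least 5.79-fold higher in CD8+CX3CR1+ DCs than in CD8+CX3CR1- DCs, and at least 5.01-fold lower in CD8+CX3CR1- DCs than in CD4+ DCs, the second call being lost with a higher floor. The other Lrp1 probe set read 93.4, 1.9, 136.5 and 52.0 in the same order, highest in CD4+ DCs. Its bounds for these comparisons were 1.69-fold and 2.46-fold. Nceh1, a cholesterol ester hydrolase gene, read 354 in CD8+CX3CR1+ DCs, 80.2 in CD8+CX3CR1- DCs, 173 in CD4+ DCs and 186 in DN DCs, 4.42-fold higher in CD8+CX3CR1+ DCs than in CD8+CX3CR1- DCs, a call lost with quantile normalization. A further Nceh1 probe set read 193, 55.7, 151 and 117 in the same order, 3.46-fold higher in CD8+CX3CR1+ than in CD8+CX3CR1- DCs. Another read 50.3, 35.8, 71.1 and 44.3, above the floor in CD4+ DCs alone. With probe sets averaged, the calls of Lpl, Osbpl3, Lrp1 and Nceh1 were lost. Between CD8+CX3CR1+ and CD8+CX3CR1- DCs the log2 differences became bounds, at least 0.79 for Lpl, 1.64 for Lrp1 and 1.45 for Nceh1. Both Osbpl3 averages lay under the floor. Whether 4-fold was reached cannot be told for any of them in this setting. The 7 detected LXR partner and cofactor genes and the 9 detected genes of 20 other oxysterol and bile acid enzymes had no call in any pair, with medians of 0.44 and -0.20 between CD8+CX3CR1+ and CD8+CX3CR1- DCs. The first of these was 0.02 with probe sets averaged, and the second -0.44 with a floor for each array and -0.09 with the floor at the 75th percentile.

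**Figure D4:**
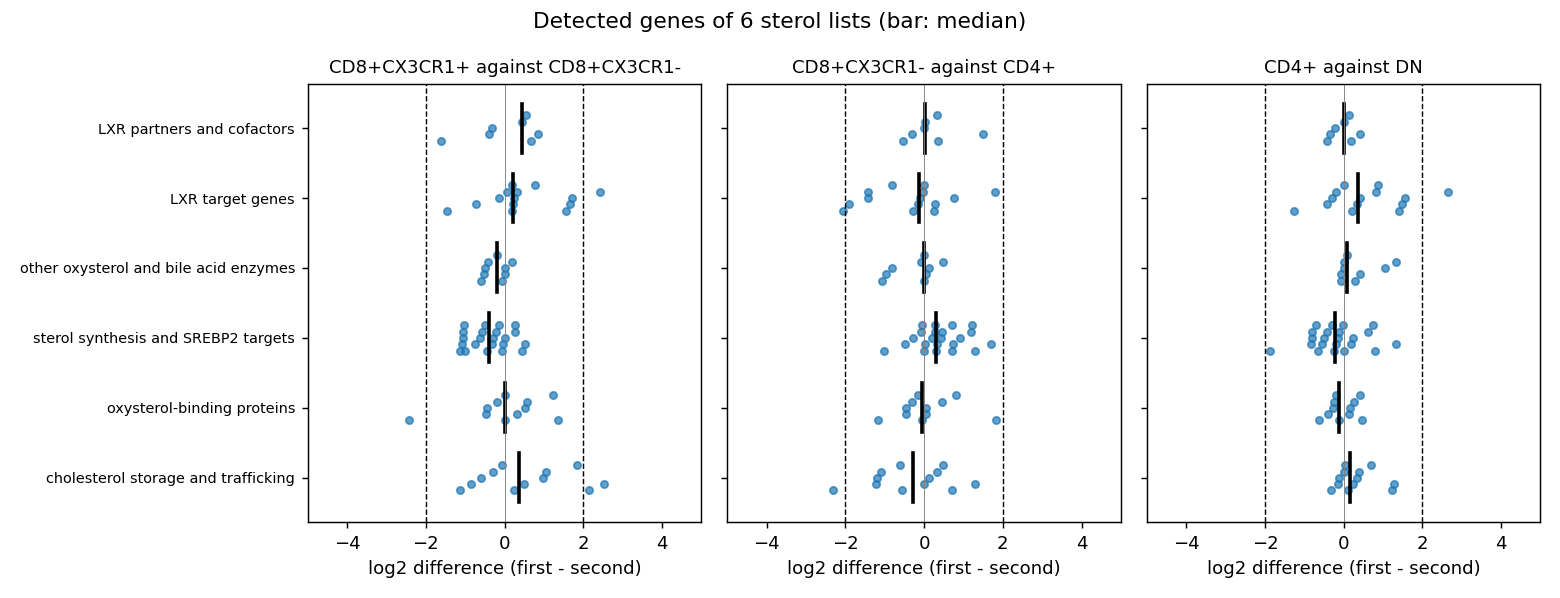
log2 difference of floored signal (first array minus second) for the detected genes of 6 sterol lists in 3 pairs of arrays; points are genes, spread up and down only to keep them apart, black bars are list medians and dashed lines mark 4-fold. Most genes lie within 4-fold, and the synthesis and SREBP2 list sits to the left in the CD8+CX3CR1+ against CD8+CX3CR1- panel, with a median of -0.38.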

How the data were processed

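Total RNA labelled with biotin was hybridised to the arrays, per the labels' protocols. The deposited intensity (signal) of each probe set comes from MAS5, which the submitters' processing notes name with no version. The 2% trimmed mean was 150.0 on all 4 arrays, so total RNA per cell cannot be compared. Of 45101 probe sets 34945 had 1 gene symbol, 932 several and 9160 none, beside 64 controls, and only those with 1 symbol were named. For each gene the probe set brightest on average over the 4 arrays (log2) was used. Signals below the floor were set to the floor before taking log2.

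Each of the 6 pairs of arrays was compared with no test. The genes, lists and rules were chosen with earlier results of these data known. Named list genes are those called in any pair; the 5 closest profiles left out RIKEN, Gm and LOC names. The 9 alternatives covered scaling, floor, probe set choice and the fold called. Python 3.11.15, pandas 2.3.3 and numpy 2.4.6 were used, and the steps were tested on simulated data.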

Additional observations from a re-analysis of the deposited data

How the results depend on the processing

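Gpr183 kept its 3 calls in all 8 settings of scaling, floor and probe sets, with log2 differences of 4.49 to 4.79 between the CD8+CX3CR1+ and CD8+CX3CR1- arrays. Cyp7b1 kept its 3 in 7. With probe sets averaged its log2 difference was at least 1.40 in each, and the calls were lost. The mean includes its probe set under the floor on every array, and the averages on the second arrays were set to the floor. Averaging left 1 gene called (Gpr183) for CD8+CX3CR1+ against CD8+CX3CR1- and 0 for CD8+CX3CR1+ against DN, and for CD8+CX3CR1+ against CD4+ it replaced Cyp7b1 by Cyp27a1 (-2.33), whose other probe set lies at background; averaging also made Cyp27a1 lower in CD8+CX3CR1+ than in DN DCs (-1.83) and lower in CD8+CX3CR1- than in CD4+ (-1.22) and DN DCs (-0.72). Without a floor 2 oxysterol genes were called for CD8+CX3CR1- against CD4+, 2 for CD8+CX3CR1+ against DN and 3 for CD8+CX3CR1- against DN, while 15.5% to 19.9% of all genes were called in a pair. At 2-fold there were 3 for CD8+CX3CR1+ against CD8+CX3CR1- (13.5% of all detected genes), 2 for CD8+CX3CR1- against CD4+ (15.9%), 0 for CD4+ against DN (7.6%), 2 for CD8+CX3CR1+ against CD4+ (9.4%), 2 for CD8+CX3CR1+ against DN (5.91%) and 2 for CD8+CX3CR1- against DN (11.0%). No called difference changed sign.

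For the 6 sterol lists, whose alternatives were added after seeing the data, calls are given in the order CD8+CX3CR1+ against CD8+CX3CR1-, CD8+CX3CR1- against CD4+, CD4+ against DN, CD8+CX3CR1+ against CD4+, CD8+CX3CR1+ against DN and CD8+CX3CR1- against DN. They were 4, 2, 1, 0, 1 and 0 as reported, 7, 4, 2, 1, 2 and 2 with the floor at the 75th percentile, 14, 14, 15, 11, 6 and 12 with no floor, and 19, 19, 11, 11, 8 and 10 at 2-fold, where the shares of all genes called are those given above for no floor and 2-fold and 0.574% to 3.29% for the 75th percentile. Equal medians gave 4 for CD8+CX3CR1- against CD4+ and 2 for CD4+ against DN; the 95th percentile gave 0 and a floor for each array 1 for CD8+CX3CR1- against CD4+. Averaging gave 0 for CD8+CX3CR1+ against CD8+CX3CR1- and 0 for CD8+CX3CR1- against CD4+, and leaving out _x, _s and _a probe sets gave 0 for CD4+ against DN. Averaging also removed the calls of Lpl, Osbpl3, Lrp1 and Nceh1, with 1 or both averages under the floor, so the size of these differences stays unknown. Over all detected genes, the 75th percentile gave 94 calls for CD4+ against DN (32 as reported), 195 for CD8+CX3CR1+ against CD4+ (98) and 88 for CD8+CX3CR1+ against DN (52); the 95th gave 20 for CD4+ against DN, and averaging 34 for CD8+CX3CR1+ against DN. The oxysterol genes had 36 differences, each counted once for every setting that could give it. Of these counts, 250 moved by less than the disagreement between probe sets and 26 by more. Some could not move, since a change of floor leaves signals well above it as they were, so the count does not measure robustness. The causes were not tested. No paired analysis was possible because each group has 1 array, and no array could be left out. Signals near the floor limit what Nr1h3, Ch25h and low Cyp7b1 values can show.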
